A study of Mus musculus with 16 samples.

Results

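CD8+ T cells that had entered a rejecting kidney graft were set against CD8+ T cells in the spleen of rejecting recipients, and the same was done for acceptance, 1 week after transplantation. The quantity described is a difference of differences. It is the log2 change from spleen to graft in the rejecting model minus the log2 change from spleen to graft in the accepting model. A feature of a model that shifts its graft and its spleen alike drops out of this quantity. The cells were those with at least 1 UMI (unique molecular identifier, 1 captured mRNA molecule) of Cd8a or Cd8b1 and no UMI of Cd4. They were 21061 of the 31290 cells in the 4 deposited CD8+ T cell matrices of 1 week, and the 9 CD8+ T cell matrices of the series held 72639 cells. Of 32285 genes in any of the 4 matrices, the 17197 genes present in all 4 were used.

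In the accepting model, DBA/2J kidneys were placed into B6 (C57BL/6J) mice, which keep such grafts without treatment. In the rejecting model, B6 kidneys were placed into DBA/2J mice. Both recipient kidneys were removed at surgery, all mice were male, and no genotype other than wild type or drug was given for these samples. Viable CD45+ cells were sorted from grafts and spleens and profiled by droplet scRNA-seq with a 3′ kit, and the authors named cell types by hand from Seurat clusters. The labels give C57BL/6J as the strain of all samples, whereas the study's text gives the 2 strain combinations. Recipient strain, donor strain, and outcome therefore cannot be told apart within a tissue. In the difference of differences, a strain effect that is unlike in graft and spleen cannot be told apart from outcome either. The matrices do not separate donor from recipient cells.

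The cell barcodes carried 11 library tags, of which 2 were from rejecting grafts (1687 cells), 3 from rejecting spleens (721 cells), 3 from accepted grafts (13529 cells), and 3 from accepted spleens (5124 cells). Each tag was taken as 1 library and as the unit of replication. The labels do not say that the tags are separate animals, so p-values measure the spread between these libraries. Library totals ran from 150738 UMIs, in rejecting spleen library 2 with 55 cells, to 2.18e+07 UMIs. No pair of libraries shared more than 13 cell barcodes, and over all pairs the shared barcodes were at most 0.631% of the smaller library. Doublets were not called here, and the sources used do not say how they were treated. Cells with a UMI of 13 markers of other lineages made up 20.3%, 92.7%, and 67.7% of rejecting spleen libraries 1, 2, and 3 and 23.2% to 41.9% of the other libraries. Without these cells, rejecting spleen libraries 1, 2, and 3 held 279, 4, and 102 cells. A call lost in the fit on the remaining cells therefore cannot be told apart from this loss of cells. Pan-T and CD8 genes (Cd3d, Cd3e, Cd3g, Trac, Cd8a, Cd8b1 and 5 others) summed to 5095 to 10035 CPM (UMIs of a gene scaled to a fixed library total) in all 11 libraries.

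RNA of other cell types did not spread evenly over the libraries. Neutrophil markers (8 genes, S100a8 and S100a9 among them) summed to 1207 and 592 CPM in rejecting spleen libraries 2 and 3, to 29.3 CPM in rejecting spleen library 1, and to at most 99.2 CPM in the other 8 libraries. B cell markers (14 genes) summed to 2380.0 to 5073 CPM in accepted spleens, 1579 to 2439.7 CPM in rejecting spleens, and at most 484 CPM in the 5 graft libraries. Erythroid and platelet markers (8 genes) summed to 261 and 2.31 CPM in rejecting grafts and to 45.5, 0.567, and 0.229 CPM in accepted grafts. In the spleens these markers summed to at most 19.9 CPM. Myeloid markers (21 genes, with Plac8 and Ly6c2 the most abundant of those tested) summed to between 1018 and 1393 CPM in every library. The study lists Plac8 among the genes highest in CD8+ T cells of accepted grafts at 1 week. The sum therefore does not measure myeloid RNA alone. A level sum does not show that each member was even. Between the grafts, 9 of the 19 tested were higher in rejection, against 50% of all genes. Their median there was 1.21 against 0.70 over all genes. Dividing cells, with at least 2 of 5 cell-cycle genes, made up 14.5% and 65.4% of the rejecting graft libraries, 24.2% to 50.1% of the accepted graft libraries, and 2.6% to 10.2% of the spleen libraries. The deposited rejecting graft matrix held no UMI of Cd4, Itgax, Itgam, Fcgr1, or Ms4a1 in 2184 cells, while the CD45+ matrix of these grafts held 930, 2182, 8770, 6546, and 145 UMIs of them. Every cell of the rejecting spleen matrix held a UMI of Cd8a or Cd8b1, against 76.6% to 78.1% of cells in rejecting grafts, 83.5% to 90.1% in accepted grafts, and 41.9% to 49.2% in accepted spleens. Beyond quality filters and clusters named by hand, the sources used here do not describe how the cells of each matrix were selected before deposit. The part of this selection in the results was tested only by the gate on 4 genes.

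A naive CD8+ T cell circulates between blood and lymphoid organs and is held in this state by transcription factors such as TCF-1 (Tcf7), LEF1, and KLF2. KLF2 drives S1pr1, the receptor for sphingosine-1-phosphate through which T cells leave lymphoid tissue. After antigen encounter these genes are turned down, and genes of killing, such as perforin (Prf1) and the granzymes, and of inhibition, such as PD-1 (Pdcd1), are turned on. In a rejected graft such effector cells attack donor tissue.

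The models differed widely within each tissue, and few genes passed the test of the difference of differences. Of 11906 genes tested by the quasi-likelihood test of edgeR with Benjamini-Hochberg adjustment, 7256 (60.9%) differed between rejecting and accepted grafts, with 5954 (50%) higher and 1302 (10.9%) lower in rejection. Between rejecting and accepted spleens, 5349 (44.9%) differed, with 4317 (36.3%) higher and 1032 (8.67%) lower. With library totals the median over all genes was 0.70 in the grafts and 0.53 in the spleens. The splits into higher and lower calls thus depend on this scaling. TMM factors were 1.32 and 1.38 in rejecting grafts, 1.14 to 1.27 in rejecting spleens, and 0.787 to 0.89 in accepted libraries. From spleen to graft, 2731 genes (22.9%) changed in rejection, of which 1830 (15.4%) rose and 901 (7.57%) fell. In acceptance 4403 (37%) changed, with 2645 (22.2%) rising and 1758 (14.8%) falling. The difference of differences passed the threshold, an adjusted p under 0.05, for 61 genes, or 0.512% of those tested. Of these, 31 genes (0.26%) had a higher and 30 (0.252%) a lower graft-over-spleen change in rejection. Its median over all genes was 0.12 with library totals and -0.01 with TMM factors, a shift of -0.13, and with TMM factors the calls split into 24 higher and 39 lower. DESeq2 with its size factors split 217 calls into 78 higher and 139 lower. The typical standard error was 0.42 for the difference of differences (median over genes) against 0.26 for the graft comparison alone. With this larger error, few calls do not show that the models differed alike in both tissues. The unadjusted p of the same edgeR test was under 0.05 for 1483 genes (12.5%).

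**Figure D1:**
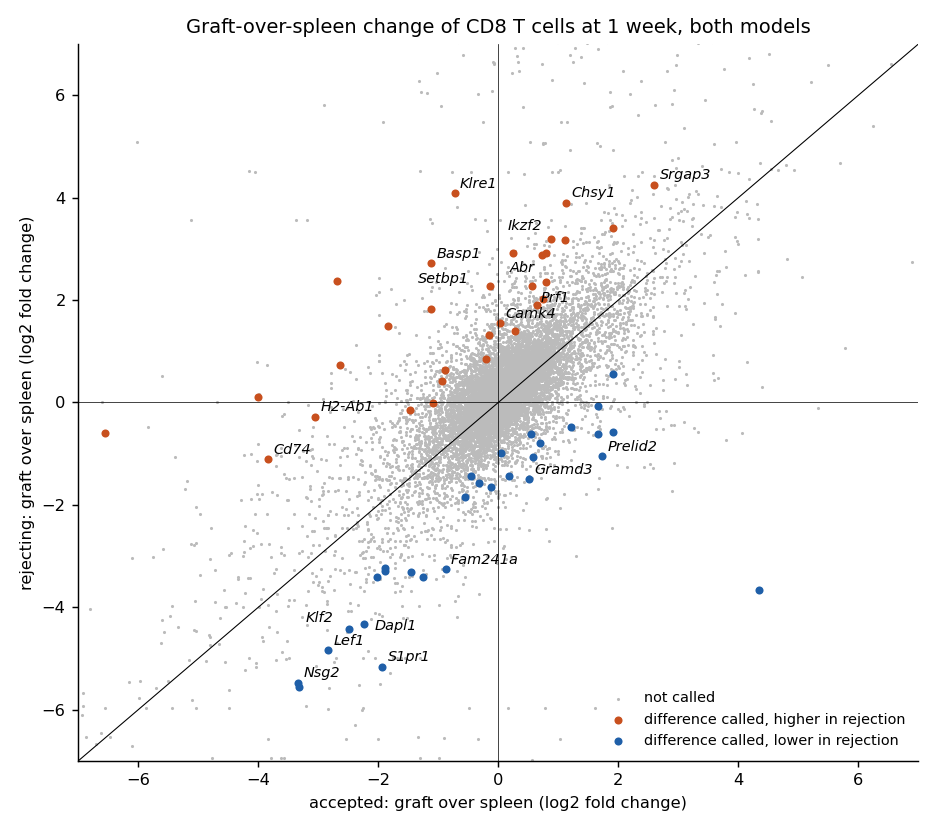
Each point is 1 gene, with its log2 graft-over-spleen change in acceptance on the x axis and in rejection on the y axis, and the diagonal marks equal changes. The 31 genes called higher in rejection (orange) lie above the diagonal and the 30 called lower (blue) below it; 188 of the 11906 genes, Itgax among the called ones, fall outside the axes at 7.

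A set of genes of the naive state and of exit from lymphoid tissue had a lower graft-over-spleen change in rejection. Of 23 naive and stem-like genes tested, 7 had a lower difference of differences (S1pr1, Nsg2, Dapl1, Gramd3, Lef1, Klf2, and Tcf7) and none had a higher one, against 0.252% of all genes called lower. Of the 7, Gramd3 alone rose into the accepted graft, and the others fell in both models. The list median was -0.93 against 0.12 over all genes, and 6 of the 23 lay above the median of all genes. From spleen to graft alone, 19 of the 23 fell in each model, against 7.57% of all genes in rejection and 14.8% in acceptance. The list was chosen with earlier results of these data known, so these counts describe it and test nothing.

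S1pr1, which encodes the exit receptor, showed the clearest separation. It lies at chr3:115710433-115715072 (mm10). Levels are sums over the cells of a library, in which fewer expressing cells and less RNA per cell cannot be told apart. It was measured at 11.8 and 7.31 CPM in the rejecting grafts, 371, 272 and 339 CPM in the rejecting spleens, 61.5, 57.3 and 45 CPM in the accepted grafts, and 204, 204 and 219 CPM in the accepted spleens. Rejecting grafts held less S1pr1 than accepted grafts and rejecting spleens held more than accepted spleens, with no overlap in either tissue. Of all genes, 10.9% were called lower in rejecting grafts and 36.3% higher in rejecting spleens. The graft-over-spleen change was -5.16 ± 0.26 (adjusted p = 6.72e-09) in rejection and -1.94 ± 0.16 (adjusted p = 3.16e-07) in acceptance, a difference of -3.22 ± 0.30 (SE, adjusted p = 0.000159). The call held when any 1 of the 11 libraries was left out, with values of -3.58 to -2.89.

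Klf2, the transcription factor upstream of S1pr1 (chr8:72319033-72321656), was lower in rejection in both tissues. Its levels were 21.1 and 8.85 CPM in the rejecting grafts, 289, 272 and 362 CPM in the rejecting spleens, 185, 188 and 150.1 CPM in the accepted grafts, and 1101, 980.4 and 841 CPM in the accepted spleens. The change from spleen to graft was -4.42 in rejection and -2.48 in acceptance, and the difference was -1.94 ± 0.35 (SE, adjusted p = 0.0209). This call was kept in 6 of 11 fits that left out 1 library.

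Lef1 (chr3:131110471-131224356), a partner of TCF-1 in keeping the naive state, was low in both kinds of graft and differed between the spleens. It stood at 22.7 and 35 CPM in the rejecting grafts, 907, 584 and 972 CPM in the rejecting spleens, 49.9, 31.7 and 47.7 CPM in the accepted grafts, and 346, 293 and 283 CPM in the accepted spleens. The graft groups overlapped and the spleen groups did not. The difference of differences was -2.01 ± 0.34 (SE, adjusted p = 0.017), of which -0.56 ± 0.27 (adjusted p = 0.0764) was the graft comparison and 1.44 ± 0.21 (adjusted p = 4.73e-05) the spleen comparison. Levels of genes with longer introns were shifted upward in rejecting libraries of both tissues, as given below. The part of this trend in the graft and spleen values of Lef1 was not tested.

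Tcf7 (chr11:52252371-52283014), which encodes TCF-1 and marks naive and stem-like cells, separated the grafts and not the spleens. Its levels were 32.4 and 39.6 CPM in the rejecting grafts, 254, 365 and 417 CPM in the rejecting spleens, 108, 77.7 and 85 CPM in the accepted grafts, and 332, 336 and 331 CPM in the accepted spleens. Its difference of differences, -1.36 ± 0.29 (SE, adjusted p = 0.0495), lay just under the threshold. The call was lost in non-dividing cells, at -0.72 (adjusted p = 0.454), and held in 2 of 11 fits without 1 library.

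Nsg2 and Dapl1 are transcripts found in naive CD8+ T cells. Nsg2 was low in both grafts, with 3.09 and 3.46 CPM in the rejecting grafts, 163, 99.5 and 155 CPM in the rejecting spleens, 10.1, 7.85 and 8.3 CPM in the accepted grafts, and 87.7, 85.1 and 92.1 CPM in the accepted spleens. Its difference was -2.14 ± 0.35 (SE, adjusted p = 0.014), and it was kept in 10 of 11 fits without 1 library, the exception being -2.04 (adjusted p = 0.059) without rejecting spleen library 1. Dapl1 stood at 10.3 and 14.6 CPM in the rejecting grafts, 220.1, 252 and 292 CPM in the rejecting spleens, 97, 58.6 and 46.3 CPM in the accepted grafts, and 374, 292 and 284 CPM in the accepted spleens, with a difference of -2.09 ± 0.41 (SE, adjusted p = 0.0313), kept in 4 of 11 such fits. Ccr7, the homing receptor of naive cells, had a difference of -2.63 ± 0.61 (SE, adjusted p = 0.0727) and was not called.

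The promoters of Klf2, Lef1, and Prf1 are printed because the first pair stand for the naive genes that fell together and Prf1 for the genes that moved the other way. They are RefSeq windows of 300 bases on GRCm38.p6 around a listed transcription start, all on the plus strand, at chr8:72318812-72319111, chr3:131110047-131110346 (the first of 4 starts listed), and chr10:61297586-61297885. The Lef1 window lies upstream of the gene's GENCODE coordinates given above. Capitals mark matches on either strand to CCACCC, a core of KLF binding.
Klf2: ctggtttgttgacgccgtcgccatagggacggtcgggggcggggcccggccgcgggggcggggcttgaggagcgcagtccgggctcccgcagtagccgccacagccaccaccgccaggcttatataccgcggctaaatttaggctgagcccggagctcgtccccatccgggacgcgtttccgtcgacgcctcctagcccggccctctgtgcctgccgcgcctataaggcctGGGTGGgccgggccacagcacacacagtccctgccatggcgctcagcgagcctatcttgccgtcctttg
Lef1: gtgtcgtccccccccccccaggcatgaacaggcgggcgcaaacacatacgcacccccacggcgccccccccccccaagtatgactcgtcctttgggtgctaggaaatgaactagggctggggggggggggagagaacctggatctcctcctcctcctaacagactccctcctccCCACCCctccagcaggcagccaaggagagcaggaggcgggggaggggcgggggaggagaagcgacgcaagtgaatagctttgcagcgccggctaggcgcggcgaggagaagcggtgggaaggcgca
Prf1: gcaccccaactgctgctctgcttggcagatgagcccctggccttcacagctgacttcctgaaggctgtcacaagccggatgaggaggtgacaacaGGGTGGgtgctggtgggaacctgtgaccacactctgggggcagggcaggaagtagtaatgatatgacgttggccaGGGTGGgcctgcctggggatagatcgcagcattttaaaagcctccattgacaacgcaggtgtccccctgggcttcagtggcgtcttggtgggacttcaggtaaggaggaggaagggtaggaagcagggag
Klf2 and Lef1 held 1 match each and Prf1 held 2, while the window of Tcf7, which is not printed, held 0. Of 27025 genes with a window, 30.9% held this motif. Windows were found for 42 of the 61 called genes, and the motif was in 7 of 21 called higher and 7 of 21 called lower. CTTTGA (TCF and LEF factors), CCGGAAG (ETS), TGTGGTT (RUNX), and TCACACC (T-box) were in 16.2%, 9.12%, 5.37%, and 3.96% of all windows and in none of these 3 promoters.

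**Figure D2:**
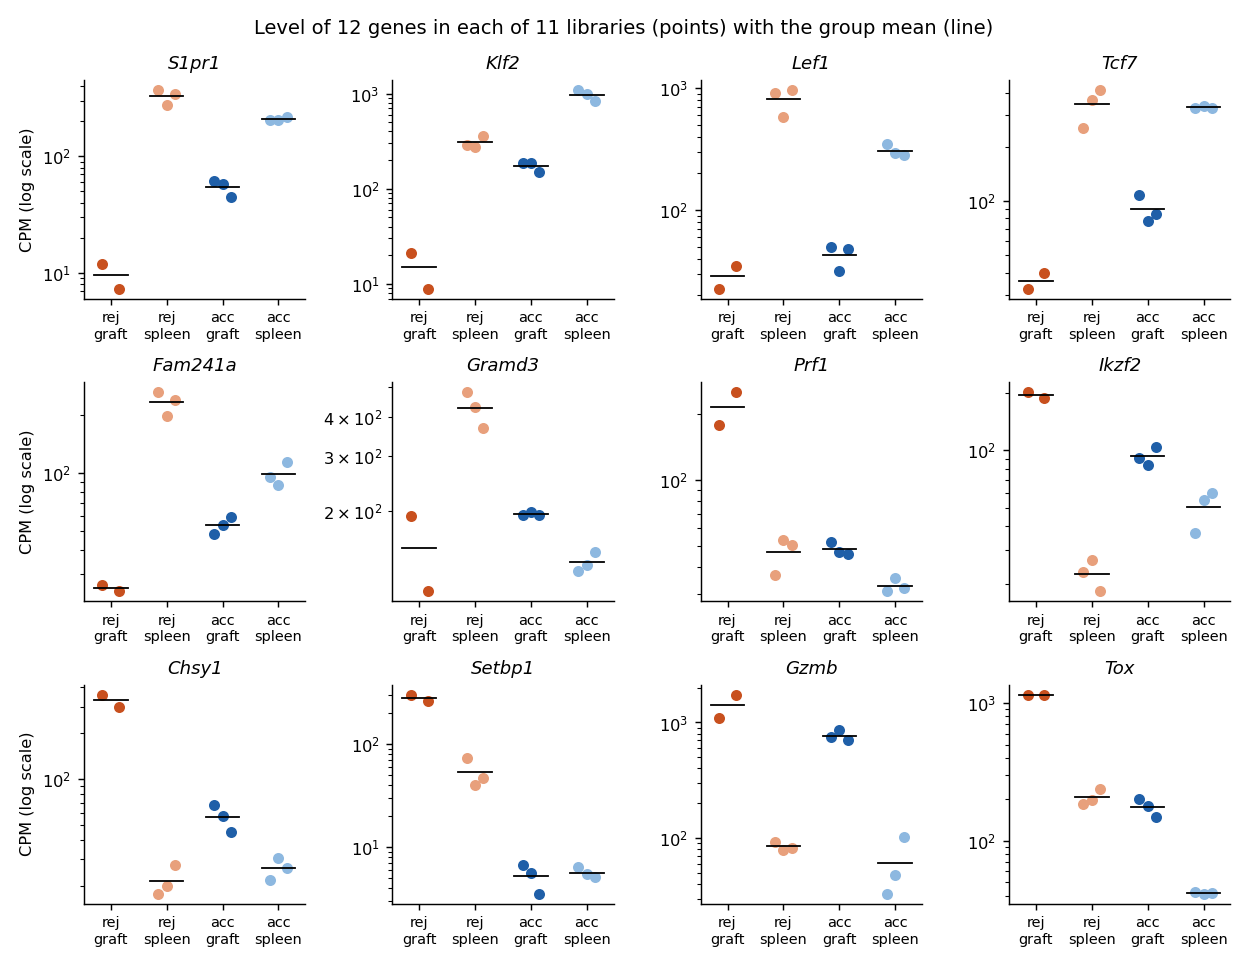
CPM of 12 genes on a log scale, with a point for each library (2 rejecting graft, 3 rejecting spleen, 3 accepted graft, and 3 accepted spleen libraries) and a line at the group mean. S1pr1, Klf2, and Tcf7 are lowest in rejecting grafts, Prf1, Ikzf2, and Chsy1 are highest there, and Tox is higher in rejection in both tissues.

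Other genes with a lower graft-over-spleen change in rejection moved in 4 ways. Of all 30, 14 fell in both models, 6 fell in rejection and rose in acceptance, 5 rose in acceptance with no called change in rejection, and 5 (Itgax, Rpl22l1, Rcbtb2, Snhg4, and Tspan13) fell in rejection with no called change in acceptance. Fam241a, Kbtbd11, and Pdlim1 fell in both models and fell further in rejection, as the naive genes did. Fam241a was measured at 26.3 and 24.2 CPM in the rejecting grafts, 265, 199 and 240.3 CPM in the rejecting spleens, 48.3, 53.6 and 59.4 CPM in the accepted grafts, and 95.8, 86.9 and 114 CPM in the accepted spleens, with a difference of -2.38 ± 0.25 (SE, adjusted p = 0.000292) that was called in all 11 fits without 1 library. Kbtbd11 and Pdlim1, an adaptor of the actin cytoskeleton, had differences of -2.16 ± 0.39 (SE, adjusted p = 0.0208) and -1.86 ± 0.39 (SE, adjusted p = 0.0465). They were called in 6 of 11 and 1 of 11 of these fits.

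Prelid2 and Gramd3 moved in opposite directions, falling into the rejecting graft and rising into the accepted one. Prelid2, of a family of mitochondrial lipid transfer proteins, was at 85.5 and 71.6 CPM in the rejecting grafts, 198, 139 and 135 CPM in the rejecting spleens, 31.2, 25.7 and 24 CPM in the accepted grafts, and 7.19, 9.55 and 7.7 CPM in the accepted spleens. It fell by 1.05 on the log2 scale in rejection and rose by 1.73 in acceptance. The difference of -2.78 ± 0.29 (SE, adjusted p = 0.000292) thus set a spleen level that was far above the accepted one (4.32 ± 0.22, adjusted p = 1.07e-09) against a graft level that was less far above it (1.54 ± 0.19, adjusted p = 4.35e-06). Gramd3 stood at 193 and 110.4 CPM in the rejecting grafts, 481, 431 and 368 CPM in the rejecting spleens, 195, 198 and 194 CPM in the accepted grafts, and 128, 134 and 148 CPM in the accepted spleens, with a difference of -2.01 ± 0.28 (SE, adjusted p = 0.00379). Both were called in all 11 fits without 1 library. Nfkbiz, an inducible regulator of NF-kB, also fell into the rejecting graft (-1.07, adjusted p = 0.00327) and rose into the accepted one (0.57, adjusted p = 0.0139), with a difference of -1.64 ± 0.28 (SE, adjusted p = 0.0189). In each model the graft came from the strain of the other model's recipients. Donor cells or donor RNA in the grafts and a change in recipient cells cannot be told apart for these genes.

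Other genes rose into the accepted graft without a called change in rejection. Odc1, the first enzyme of polyamine synthesis, was at 55.1 and 66.6 CPM in the rejecting grafts, 50.9, 19.9 and 38 CPM in the rejecting spleens, 146, 125 and 133 CPM in the accepted grafts, and 33.6, 37.1 and 36.6 CPM in the accepted spleens. It rose by 1.91 (adjusted p = 2.43e-07) in acceptance, against 0.56 (adjusted p = 0.0951) in rejection, and the difference was -1.36 ± 0.28 (SE, adjusted p = 0.0465). Pim3, a survival kinase, and Gch1, the first enzyme of tetrahydrobiopterin synthesis, followed with differences of -2.49 ± 0.52 (SE, adjusted p = 0.0465) and -2.29 ± 0.36 (SE, adjusted p = 0.00929). The lncRNA Gm47015 was at 6.03 to 18.3 CPM in acceptance and 117 to 272 CPM in rejection, with a difference of -1.70 ± 0.36 (SE, adjusted p = 0.0473).

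A pair of the lower calls rested on groups at or near 0. Itgax, the integrin of dendritic cells that also appears on effector T cells, had no UMI in the rejecting grafts and 8.91, 6.63 and 15.2 CPM in the rejecting spleens. It is 1 of the 5 genes with no UMI in that matrix as deposited, so a change in the cells, with a spleen level at least 17.1-fold higher at a floor of 3 UMIs over the graft group, and a selection of cells before deposit cannot be told apart. With cells holding Itgax, Itgam, Fcgr1, or Ms4a1 left out of every matrix, 46 genes were called and 42 of the 61 calls were kept. Hacd4, an enzyme of fatty acid elongation, had 0 UMIs in the accepted spleens and 18 UMIs in the accepted grafts, at least 2.21-fold more at the same floor, while it was at 19.1, 13.3 and 9.13 CPM in rejecting spleens and 1.55 and 0.769 CPM in rejecting grafts.

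Prf1 led the killing genes on the other side. Perforin is the protein that opens the membrane of the target cell to granzymes. Prf1 (chr10:61297833-61304680) was measured at 179 and 253 CPM in the rejecting grafts, 36.9, 53.1 and 50.2 CPM in the rejecting spleens, 51.9, 46.6 and 45.9 CPM in the accepted grafts, and 30.9, 35.7 and 31.9 CPM in the accepted spleens. Each rejecting graft library lay above all 9 others. It rose by 2.28 (adjusted p = 2.6e-06) from spleen to graft in rejection and by 0.55 (adjusted p = 0.0121) in acceptance, a difference of 1.73 ± 0.27 (SE, adjusted p = 0.00924) that was kept in 10 of 11 fits without 1 library. Without rejecting spleen library 1 it was 1.53 (adjusted p = 0.063). In cells of the myeloid type from the CD45+ matrix of the rejecting grafts (5877 cells) Prf1 was at 3.99 CPM. It was the only one of 22 tested granule and killing genes called by edgeR, against 0.512% of all genes called. DESeq2 called 2 of the list and 217 of 11906 genes. In non-dividing cells edgeR called 4 of the list and 172 of 11572 genes. The list median was 0.40 against 0.12 over all genes.

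Ikzf2 (chr1:69531214-69687245), which encodes Helios, a transcription factor of regulatory and chronically stimulated T cells, had the lowest spleen and the highest graft levels in rejection. It was at 201 and 189 CPM in the rejecting grafts, 22.9, 26.5 and 18.3 CPM in the rejecting spleens, 91, 83.6 and 104 CPM in the accepted grafts, and 36.7, 54.8 and 59.7 CPM in the accepted spleens. Neither tissue showed overlap between models, in opposite directions, while 50% of all genes were called higher in rejecting grafts and 8.67% lower in rejecting spleens. The difference was 2.31 ± 0.33 (SE, adjusted p = 0.00417) and was called in all 11 fits without 1 library. In cells without a UMI of 13 markers of other lineages it was 1.79 (adjusted p = 0.105), with 4 cells left in rejecting spleen library 2.

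Chsy1 (chr7:66109515-66173798), a synthase of chondroitin chains, had the clearest rise. It was at 359 and 299 CPM in the rejecting grafts, 17.8, 19.9 and 27.4 CPM in the rejecting spleens, 67.8, 57.9 and 45.5 CPM in the accepted grafts, and 21.8, 30.7 and 26.1 CPM in the accepted spleens. The spleen groups overlapped and the rejecting grafts lay above the accepted ones, with a difference of 2.78 ± 0.33 (SE, adjusted p = 0.00109). This call was kept in all 24 alternatives.

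Camk4, Rabgap1l, and Setbp1 were called higher. Camk4, a calcium-dependent kinase, and Rabgap1l, a regulator of vesicle traffic, did not pass the test between accepted graft and spleen (0.03, adjusted p = 0.912 and -0.15, adjusted p = 0.513) and rose in rejection by 1.54 (adjusted p = 2.29e-05) and 1.31 (adjusted p = 0.000204). Camk4 was at 483 and 342 CPM in the rejecting grafts, 141, 126 and 149 CPM in the rejecting spleens, 24.9, 22 and 25.6 CPM in the accepted grafts, and 22.7, 21.6 and 26.5 CPM in the accepted spleens, with a difference of 1.51 ± 0.25 (SE, adjusted p = 0.012). Setbp1, a nuclear SET-binding protein, was at 301 and 259 CPM in the rejecting grafts, 73.8, 39.8 and 47.2 CPM in the rejecting spleens, 6.73, 5.59 and 3.53 CPM in the accepted grafts, and 6.42, 5.46 and 5.13 CPM in the accepted spleens, with a difference of 2.40 ± 0.37 (SE, adjusted p = 0.00924).

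Abr, Srgap3, Ptprj, and Dgkh act on small GTPases, receptor phosphorylation, and diacylglycerol. Each rose into the graft in both models and rose further in rejection. Each was also higher in rejecting than in accepted libraries of both tissues without overlap. Of all genes, 50% were called higher in rejecting grafts and 36.3% in rejecting spleens. Their differences were 2.14 ± 0.33 (SE, adjusted p = 0.00924), 1.66 ± 0.32 (SE, adjusted p = 0.0301), and 2.06 ± 0.36 (SE, adjusted p = 0.0189), with Dgkh called at an adjusted p of 0.0465. In myeloid cells of the rejecting grafts Abr and Ptprj were at 283 and 574 CPM, against 284 and 160.4 CPM and 252 and 175 CPM in the rejecting graft libraries. In cells without a UMI of the markers of other lineages, their differences were 3.25 (adjusted p = 0.00285) and 1.82 (adjusted p = 0.208). Basp1, a membrane protein, went down in acceptance (-1.12, adjusted p = 0.00367) and up in rejection (2.72, adjusted p = 0.00011), with a difference of 3.84 ± 0.47 (SE, adjusted p = 0.00112). It was at 665 CPM in myeloid cells, and its difference in cells without markers of other lineages was 3.36 (adjusted p = 0.0245).

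A pair of receptor genes on chromosome 6 was called higher on few UMIs in the rejecting spleens. Klre1 and Klra7 encode lectin-like receptors of NK cells and of some memory CD8+ T cells. Klre1 was at 24.7 and 18.9 CPM in the rejecting grafts, 2.54, 0 and 0 CPM in the rejecting spleens, 11, 14.6 and 9.5 CPM in the accepted grafts, and 15.7, 20 and 22 CPM in the accepted spleens, with 2 UMIs in the 3 rejecting spleens together. The rejecting graft level was 17.0-fold the spleen level, with a counting interval of 4.59 to 143. The fitted difference, 4.82 ± 0.70 (SE, adjusted p = 0.0055), depends on the prior count at such levels. Klra7 also had 2 UMIs in rejecting spleens, and 6.18 and 6.93 CPM in the grafts, 5.27-fold the spleen level with an interval of 1.34 to 45.5, against 19.1, 22.7 and 45.9 CPM in accepted spleens. The list of effector memory and NK receptor genes had 2 higher and no lower calls of 20, against 0.26% of all genes called higher, with a median of 0.82. In rejecting spleens 4 of the 20 were lower than in accepted spleens, against 8.67% of all genes.

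MHC class II genes, which mark B cells and other antigen-presenting cells, fell from spleen to graft in acceptance in 7 of 7 tested and in rejection in 3 of 7, against 14.8% and 7.57% of all genes. In the difference, Cd74 and H2-Ab1 were called higher, against 0.26% of all genes, none was called lower, and the median was 2.18. Cd74, the invariant chain, was at 299.8 and 126 CPM in the rejecting grafts, 543, 299 and 489.8 CPM in the rejecting spleens, 67, 46.5 and 73 CPM in the accepted grafts, and 891 ± 369 CPM (SD, n = 3) in the accepted spleens, and the difference was 2.72 ± 0.49 (SE, adjusted p = 0.0209). H2-Ab1 was at 119 and 63.5 CPM in the rejecting grafts and 154, 66.3 and 83.7 CPM in the rejecting spleens, with a difference of 2.78 ± 0.50 (SE, adjusted p = 0.0208). B cell marker sums were highest in accepted spleens, as given above, and Cd74 stood at 1.19e+04 CPM in myeloid cells of the rejecting grafts. In cells without markers of other lineages the differences were 0.95 (adjusted p = 0.52) and 1.66 (adjusted p = 0.329), and neither was called. That fit held 4 cells of rejecting spleen library 2.

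The called genes can be split into their graft and spleen parts, since the difference of differences is the model difference in the grafts minus that in the spleens. The genes were chosen by this difference, so the counts that follow describe them and test nothing. Among the 31 genes called higher, the graft part was the larger in 26 and was itself called in the same direction in 29, against 50% of all genes higher in rejecting grafts. Among the 30 called lower, the graft part was larger in 16 and the spleen part in 14, and 19 of the 30 were higher in rejecting than in accepted spleens, against 36.3% of all genes. From spleen to graft, 20 of the 31 rose and 1 fell in rejection, while 11 rose and 14 fell in acceptance. Of the 30 called lower, 25 fell and none rose in rejection, while 11 rose and 14 fell in acceptance. Of all genes, 15.4% rose and 7.57% fell in rejection, and 22.2% rose and 14.8% fell in acceptance.

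**Figure D3:**
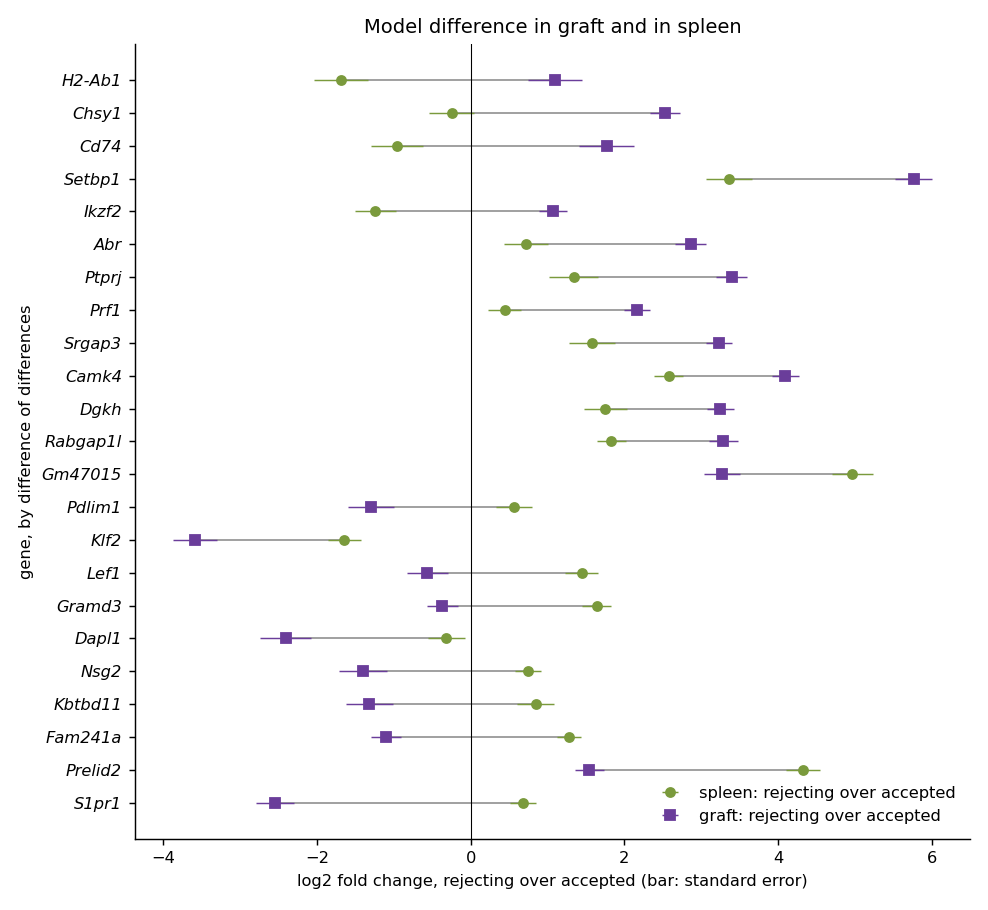
For 23 abundant called genes (12 higher and 11 lower), the x axis gives the log2 model difference (rejecting over accepted) in the spleens (green circles) and in the grafts (purple squares), with bars of 1 standard error; the length of the grey line is the difference of differences. Camk4, Setbp1, and Prelid2 differ between models in both tissues in the same direction, while S1pr1, Ikzf2, and H2-Ab1 lie on opposite sides of 0.

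The study named 8 genes when it set accepted against rejecting grafts, a comparison of grafts alone, and of these only Prf1 was called in the difference of differences. Between the grafts, Prf1 and Tox were higher in rejection, as were Gzmb (0.88 ± 0.31, adjusted p = 0.024), Pdcd1 (0.98 ± 0.26, adjusted p = 0.0043), and Lag3 (1.09 ± 0.20, adjusted p = 0.000236). Of all genes, 50% were higher in rejecting grafts, with a median of 0.70, and Gzmb and Pdcd1 lay close to this median. Ifng (0.14 ± 0.18, adjusted p = 0.504), Fgl2 (0.28 ± 0.30, adjusted p = 0.433), and Il2rb (0.40 ± 0.26, adjusted p = 0.195) did not pass that test. Gzmb, the main granzyme, was at 1088 and 1740.1 CPM in the rejecting grafts, 92.9, 79.6 and 82.1 CPM in the rejecting spleens, 747, 853 and 709.9 CPM in the accepted grafts, and 33, 48.5 and 103 CPM in the accepted spleens. It rose by 4.04 ± 0.37 (adjusted p = 2.15e-06) in rejection and by 3.64 ± 0.32 (adjusted p = 4.42e-07) in acceptance, and these rises differed by 0.40 ± 0.47 (SE, adjusted p = 0.777). The value was sensitive to the cells used, at 1.98 (adjusted p = 0.0355) in non-dividing cells and 2.47 (adjusted p = 0.114) in cells without other-lineage markers, and at -0.21 (adjusted p = 0.871) without accepted spleen library 3.

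Tox, a transcription factor of exhausted T cells, rose in both models from different spleen levels. It was at 1138 and 1152 CPM in the rejecting grafts, 184, 199 and 237 CPM in the rejecting spleens, 200.1, 178 and 149.8 CPM in the accepted grafts, and 42.2, 41.2 and 41.6 CPM in the accepted spleens. Rejecting libraries were higher in both tissues (2.70 ± 0.16, adjusted p = 1.9e-09 in grafts and 2.32 ± 0.17, adjusted p = 2.39e-08 in spleens), and the difference of differences was 0.38 ± 0.23 (SE, adjusted p = 0.526). Within each tissue the model difference varied with intron length, as given below, and the part of this trend in the Tox levels was not tested. Ifng, Pdcd1, and Lag3 rose in both models, with differences of 1.13 ± 0.35 (SE, adjusted p = 0.194), 1.04 ± 0.65 (SE, adjusted p = 0.553), and 1.38 ± 0.45 (SE, adjusted p = 0.213). Without rejecting spleen library 1 these were 1.72, 0.20, and 0.86, without rejecting spleen library 3 Pdcd1 was at 1.70, and without accepted spleen library 3 it was at 0.57. Fgl2 and Il2rb, which the study takes as markers of regulatory-like cells, also rose in both models and differed by 1.21 ± 0.88 (SE, adjusted p = 0.618) and 0.19 ± 0.38 (SE, adjusted p = 0.892). Fgl2 was at 0.67 without rejecting graft library 1 and 0.70 without rejecting spleen library 3. Il2rb ran from -0.06 to 0.57 with 1 library left out. Rejecting spleens held only 21 UMIs of Ifng, 11 of Pdcd1, 15 of Lag3, and 6 of Fgl2. Fgl2 was at 482 CPM in myeloid cells, above every CD8+ T cell library.

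The share of cells with a UMI was compared for 11 genes after every cell was thinned to 1000 UMIs. Gzmb was found in 52.2 and 61.4% of cells of the rejecting grafts, 1.43, 1.82 and 2.55% in the rejecting spleens, 30.5, 34.9 and 32.2% in the accepted grafts, and 1.81, 3.41 and 3.99% in the accepted spleens. Pdcd1 was found in 40.5 and 36.9%, 0, 0 and 0.318%, 20.9, 21.2 and 25.2%, and 0.125, 0.671 and 0.88% of cells, in the same order of groups. The graft groups did not overlap for either gene, and spleen shares were low in both models. The differences of differences were 25.4 percentage points for Gzmb and 16.7 points for Pdcd1 (exact permutation of the model labels within each tissue, 200 arrangements, two-sided p = 0.015 and 0.01, adjusted p = 0.0825 for both over the 11 genes). The graft differences alone were 24.3 and 16.2 points, and the spleen differences -1.14 and -0.452 points. Exchanging labels assumes no model difference in either tissue, so these p-values do not separate a graft difference from unequal differences. Ifng followed with 2.66 points (exact p = 0.035, adjusted p = 0.128), and with 1.87 points without thinning (exact p = 0.72), 0.55 points at 500 UMIs (exact p = 0.295), and 0.51 points in non-dividing cells (exact p = 0.815). No gene passed after adjustment, and 3 had an unadjusted p under 0.05; the smallest p the arrangements allow is 0.005, which adjusts to 0.055 for a single gene among 11, so that no single gene could pass alone.

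Tox, Lag3, and Prf1 had higher shares in the rejecting grafts, and their differences of differences did not pass the test. Their differences were 29.4, 8.38, and 9.25 points (exact permutation p = 0.175, 0.09, and 0.145). For Tox and Prf1, every rejecting spleen library also lay above every accepted one. Exchanging the spleen labels then gives differences at least as large, so p could not reach 0.005 and the test cannot decide. Prf1 was at 19.7 points without thinning (exact p = 0.05, adjusted p = 0.238). Lag3 was at 5.08 points at 500 UMIs (exact p = 0.025, adjusted p = 0.138). Tcf7 was found in 1.81 and 3.1% of cells of the rejecting grafts and 10.4, 7.33 and 8.08% of the accepted grafts, and in 22, 36.4 and 33.4% and 27.6, 28.4 and 27.5% of the spleens, a difference of -8.9 points (exact permutation p = 0.095). This difference was -3.31 points without thinning (exact p = 0.77), -4.45 points at 500 UMIs (exact p = 0.115), and -3.21 points in non-dividing cells (exact p = 0.53). In myeloid cells of the rejecting grafts, at a median depth of 2460 UMIs before thinning, the thinned shares were 0.954% for Gzmb, 0.273% for Pdcd1, 0.852% for Tox, 0.409% for Prf1, and 34.7% for Fgl2. Shares of Fgl2 in T cells, 8.61% in rejecting and 7.04% in accepted grafts on average, were below that of myeloid cells, and the part of myeloid RNA in them was not tested. Unthinned, the mean Gzmb shares were 72.6% and 48.1% in the grafts, and median depths of the 11 libraries ran from 1764 to 3664 UMIs per cell.

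**Figure D4:**
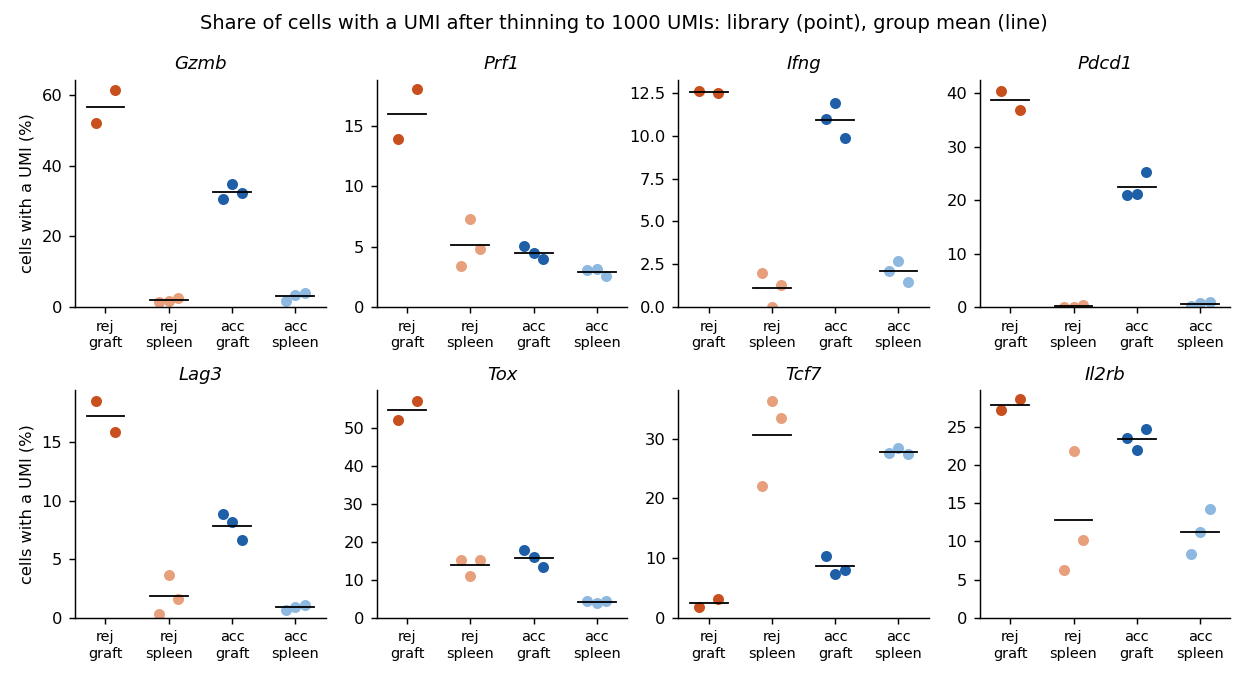
Percentage of cells with at least 1 UMI of 8 genes after thinning to 1000 UMIs per cell, with a point for each library and a line at the group mean. Gzmb, Prf1, Pdcd1, Lag3, and Tox are more frequent in rejecting than in accepted grafts, while Tcf7 is less frequent there and overlaps between the spleens.

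The other gene lists showed few or no calls by edgeR, against 0.512% of all genes called and 12.5% at an unadjusted p under 0.05. DESeq2 called more genes, 217 of 11906, and its counts in each list are to be set against that share. Among 15 inhibitory receptors edgeR called none, DESeq2 called 2, and 4 had an unadjusted p under 0.05, with a median of -0.56. From spleen to graft, 13 of them rose in acceptance and 9 in rejection, against 22.2% and 15.4% of all genes. Ctla4, the CD28 antagonist, was at -1.15 ± 0.29 (SE, adjusted p = 0.0948). It was called by DESeq2, at -1.28 (adjusted p = 0.0177), and without rejecting graft library 1, at -1.55 (adjusted p = 0.00371). Of 18 exhaustion-linked transcription factors Ikzf2 alone was called by edgeR, 3 were called by DESeq2, and 6 had an unadjusted p under 0.05, with a median of 0.11. None of 20 tissue residency genes, 15 cytokine and chemokine genes, and 18 regulatory and costimulatory genes was called by edgeR, while DESeq2 called 1 in each list and 6, 5, and 4 had an unadjusted p under 0.05, with medians of 0.06, 0.69, and 0.33. Of 34 immediate early genes, edgeR called Nfkbiz lower, DESeq2 called 5, and 16 had an unadjusted p under 0.05, with a median of -0.17. Of 23 genes of chemokine receptors and adhesion, edgeR called Itgax lower, DESeq2 called 4, and 10 had an unadjusted p under 0.05, with a median of 0.04. Ccl5, a chemokine of effector cells, and Ltb, a lymphotoxin subunit, differed by 0.22 ± 0.95 and 0.93 ± 0.24. Ltb was called by DESeq2, at 0.82 (adjusted p = 0.0218). Ccl5 had no stable direction, at -2.25 without rejecting graft library 1 and 1.11 without rejecting graft library 2, and between -0.20 and 0.89 without any 1 of the other libraries. Ccl5 was at 2649.5 and 258 CPM in the 2 rejecting grafts.

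More interferon-stimulated genes fell than rose from spleen to graft in both models. Of 57 tested, 18 fell and 3 rose from spleen to graft in rejection, 26 fell and 2 rose in acceptance, against 7.57% of all genes falling in rejection and 14.8% in acceptance. In the difference none was called by edgeR or DESeq2, 5 had an unadjusted p under 0.05, and the median was -0.08. MHC class I and peptide loading genes had no call among 23 by edgeR or DESeq2, 1 unadjusted p under 0.05, and a median of -0.09. Of 49 cell-cycle genes, 45 rose and 2 fell in acceptance, and 22 rose and 2 fell in rejection, against 22.2% and 15.4% of all genes rising. None was called in the difference by edgeR or DESeq2, with 2 at an unadjusted p under 0.05. Their median was -0.29, while the share of dividing cells ran from 14.5% to 65.4% between the 2 rejecting graft libraries.

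Most genes of oxidative phosphorylation and of ribosomes lay below the median of all genes, and those of glycolysis did not. Of 31 glycolysis and hypoxia genes none was called by edgeR or DESeq2, 3 had an unadjusted p under 0.05, 17 lay above the median of all genes, and the list median was 0.19. Of 49 oxidative phosphorylation genes 45 rose into the accepted graft and 20 into the rejecting one, against 22.2% and 15.4% of all genes. In the difference edgeR called none, DESeq2 called 1, 4 had an unadjusted p under 0.05, and 7 lay above the median of all genes (list median -0.28). Of 35 genes of ribosome biogenesis and Myc targets, Odc1 was called lower and the median was -0.18. Of 82 cytosolic ribosomal protein genes, Rpl9 and Rpl22l1 were called lower (-0.98 ± 0.19, adjusted p = 0.0313 and -1.04 ± 0.22, adjusted p = 0.0465). DESeq2 called 17 of the 82, against 217 of 11906 genes. The list median was -0.36, and 3 lay above the median of all genes. Ribosomal protein genes made up 18.4% and 19.2% of UMIs in rejecting grafts, 28.4% to 34.2% in rejecting spleens, 29% to 29.9% in accepted grafts, and 36.1% to 38% in accepted spleens. Leaving these and 3 other gene classes out of the library totals gave 31 higher and 32 lower calls.

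**Figure D5:**
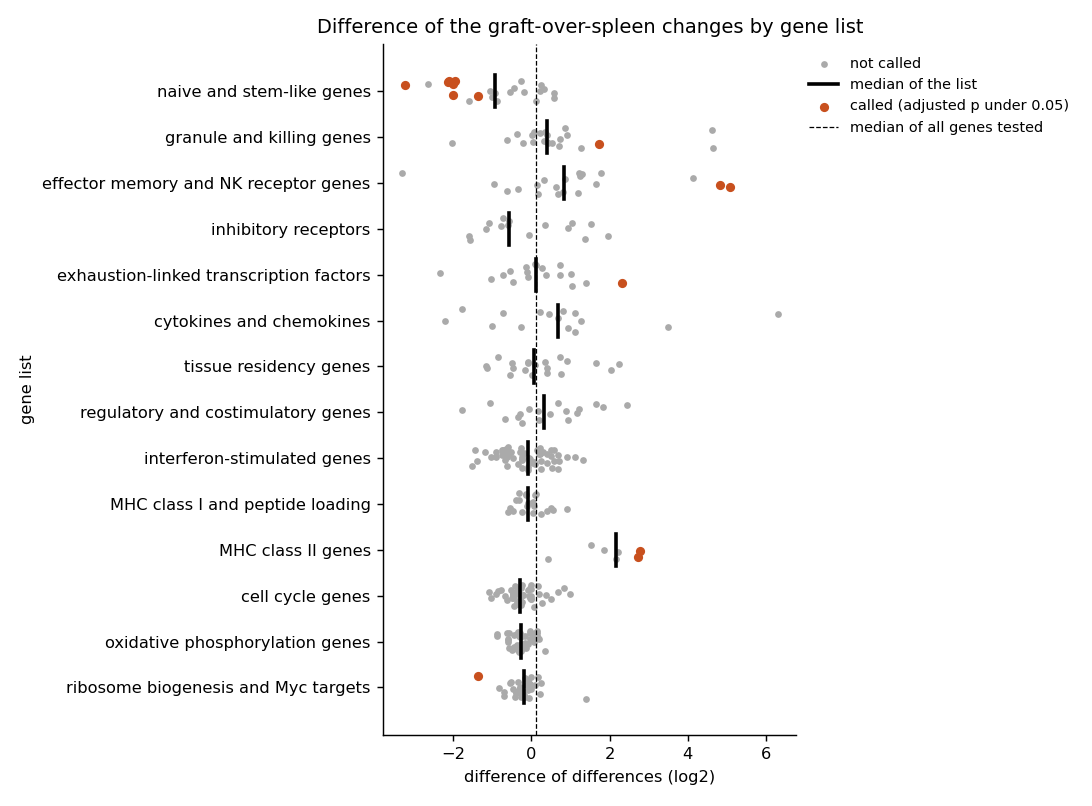
Each point is the log2 difference of differences of 1 gene, by gene list, with called genes in orange, the list median as a bar, and the median of all genes (0.12) as a dashed line. The 7 called naive and stem-like genes lie between -3.22 and -1.36, and MHC class II genes have the highest list median (2.18).

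The model difference within each tissue varied with the length of a gene's introns, and the difference of differences varied less. Genes with a mean of 10 CPM or more were put into 10 groups by intron length, and the median log2 deviation from the mean of all libraries was taken in each. From the shortest group (median 596 bases of intron) to the longest (1.63e+05 bases) the deviation went from -0.15 to 1.12 in rejecting grafts and from -0.29 to 0.98 in rejecting spleens, against 0.30 to -0.87 in accepted grafts and 0.16 to -0.83 in accepted spleens. Combined into a difference of differences, the group medians ran from 0.00033 to 0.24. The genes called higher had a median intron length of 99917 bases and those called lower 25002 bases, against 17550 bases over all genes tested. With the length trend removed from each library, 53 of the 61 calls were kept among 27 higher and 47 lower calls.

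All 61 called genes kept their direction in each fit that left out 1 library, but few calls survived every one of them. Apart from 1 gene not reported here, these were Basp1, Chsy1, Ikzf2, Klre1, and Setbp1 (higher) and Fam241a, Gramd3, Prelid2, and S1pr1 (lower). Without rejecting spleen libraries 2 and 3, which carried the neutrophil markers, a single rejecting spleen library was left, whose spread was taken from the other groups, and 1 gene was called higher and 6 lower, against 31 and 30. Of these, Chsy1, S1pr1, Fam241a, Nsg2, Prelid2, and Gramd3 can be named.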

How the data were processed

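Single-cell 3′ libraries of CD45+ cells were mapped with Cell Ranger to mm10, per the labels, and the authors deposited raw UMI counts of cells they had called CD8+ T cells after filtering on UMIs, mitochondrial content, and expressed genes; versions and limits are not given in the sources used here. UMIs of the cells described were summed per library tag, with no doublet caller run. edgeR 4.0.16 (R 4.3.3) with filterByExpr, library totals over the shared genes, and quasi-likelihood tests gave all contrasts in 1 fit of 4 groups (residual df 7, common biological coefficient of variation 0.166), tested on simulated data. For edgeR values, SE is the absolute log2 change divided by the square root of the F value of the test. DESeq2 1.42.0 was an alternative. The members and lists were chosen with earlier results of these data known. Genes named are the 8 the study set between the models, up to 5 called genes (or the 2 most abundant) of each of 35 lists, from which examples are given, and the 12 largest changes in each direction at a mean of at least 50 CPM. Of these, 1 gene is not reported here. Others (Tcf7, Ccr7, Pim3, Gch1, Hacd4, Basp1, Chst10, Ost4, Adk, Rcbtb2, Snhg4, Tspan13) were chosen after their values were seen. Coordinates are from GENCODE M21, which matched 16945 of 17197 symbols.

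Alternatives were other scalings, filters, tests, and cells, leaving out libraries, and a pairing by tag number. A gate on 4 genes and leaving out 2 rejecting spleen libraries together were added after the data were seen.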

Additional observations from a re-analysis of the deposited data

Results flagged for a closer look

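The 31 genes with a higher and the 30 genes with a lower graft-over-spleen change in rejection are listed here because the test of the difference between the models itself passed. Of them, 9 genes that can be named also had called changes in opposite directions. Chst10 (2.95), Klre1 (4.82), and Basp1 (3.84) rose into the rejecting graft and fell into the accepted one. Hacd4 (-8.00), Prelid2 (-2.78), Gramd3 (-2.01), Nfkbiz (-1.64), Ost4 (-1.48), and Adk (-1.16) fell into the rejecting graft and rose into the accepted one. For Hacd4, with 0 UMIs in the accepted spleens, and Klre1, with 2 UMIs in the rejecting spleens, the fitted value depends on the prior count and is no measured size. Values are log2 differences of differences. Each graft came from the strain of the other model's recipients, so donor cells or donor RNA and a change in recipient cells cannot be told apart.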

How the results depend on the processing

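The count of 61 genes (31 higher, 30 lower) depended on the processing more than the direction of its members. DESeq2 called 217 (78 and 139), no filter on low counts 149 (87 and 62), all cells of the matrices 187 (142 higher), non-dividing cells 172 (109 and 63), and cells without other-lineage UMIs 29 (11 and 18). In the last of these fits, rejecting spleen library 2 held 4 cells. With the intron length trend removed 47 were lower. Without rejecting spleen libraries 2 and 3, a choice made after seeing the data, 7 were called (1 and 6), and 1702 changed from spleen to graft in rejection. Thinned cells gave 2873 genes from spleen to graft in acceptance.

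Leaving out 1 library (for rejecting grafts this leaves 1, assumed to vary like the other groups) gave 14 to 127 calls (7 to 72 higher, 7 to 80 lower): 127 and 111 without rejecting graft 1 or 2, 14, 34, and 22 without rejecting spleen 1, 2, or 3, 35, 19, and 38 without accepted graft 1, 2, or 3, and 32, 18, and 40 without accepted spleen 1, 2, or 3. The other counts ranged over 6458 to 7313 (grafts), 4117 to 5583 (spleens), 1622 to 3086 (rejecting graft over spleen), and 3085 to 5128 (accepted graft over spleen). For shares of cells all were 0, which the design nearly fixes, since the smallest p of a single gene then adjusts to 0.0917 or more.

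Same-numbered graft and spleen tags had r of 0.191, 0.0925, and 0.29 in acceptance and -0.0104 and -0.0188 in rejection over 2967 genes, so 2 of 5 pairs were above 0.1 and the numbers were not taken as pairs. The replicate block by tag number gave 114 calls (55 and 59), with 54 of the 61 among them. For the genes of the naming rule no call changed sign under any alternative, and of the values of the 31 called genes 569 kept and 173 lost the call, while 16 of those of the 51 others gained it. Rejecting spleen libraries held 150738 to 786041 UMIs.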
